A study of Mus musculus with 3 samples.

Results

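The 9 genes described here are Tcf7, Lef1, Foxo1, Bach2, Id3, Satb1, Actn1, Treml2 and Dapl1, genes of naive and stem-like T cells. They were taken by symbol from the deposited tables, where each has 1 row, and are 9 of 23337 gene symbols. All 9 passed the filter on low values, a mean of at least 1 FPKM (fragments per kilobase of transcript, relative to all fragments sequenced), as did 9800 symbols in all. RNA came from CD4+ T cells labelled Th1, isolated from C57/Bl6j mice that were wild-type and 7 weeks old. The lymphoid group held 2 libraries, titled spleen, with a tissue label that adds lymph nodes and draining lymph nodes. The tumour group held 1 library of the same cell label from tumours of B16-F10, a mouse melanoma line that can be transplanted into this strain. The labels do not say how the cells were sorted, whether mice were pooled or whether the libraries came from separate animals. The series is described as a study of how the tumour environment affects splicing and gene expression. The p-values below measure the spread between the 2 lymphoid libraries, which may be technical.

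A naive T cell keeps itself quiescent and circulating between blood and lymphoid organs through a small set of transcription factors. TCF-1 (from Tcf7) and LEF-1 bind the same DNA motif and hold the naive and stem-like programme. FOXO1 drives the homing and survival genes Ccr7, Klf2, S1pr1 and Il7r, BACH2 restrains effector genes, and ID3 blocks the DNA binding of E proteins. Cells that differentiate into short-lived effectors usually lose much of this set, and stem-like T cells in tumours and chronic infection keep TCF-1.

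The deposited tumour values were lower for most genes, with a median log2 change of -0.96 over those tested. The libraries were therefore set to a common median gene with median-of-ratios factors of 1.29, 1.33 and 0.58. Levels below are FPKM divided by these factors, and changes are tumour minus lymphoid on log2(scaled FPKM + 1), which understates the change of low genes. A call is a Benjamini-Hochberg adjusted p under 0.05 over all 9800 tested genes in limma. The single tumour library is assumed there to vary like the lymphoid ones. In that fit 12.7% of genes were called higher and 9.17% lower in the tumour library. Depth, estimated from the smallest steps between low values, was 11400000 and 15430000 fragments in the lymphoid libraries and 3260000 in the tumour library. The members rested on an estimated 7 (Dapl1) to 292 (Tcf7 and Satb1) tumour fragments.

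The labelled cell type was checked against marker genes. The 9 pan-T-cell markers summed to 687.5 and 707.3 scaled FPKM in the lymphoid libraries and 655.6 in the tumour library, and 0 of them was called. Cd4 was at 67.9 and 59.3 in the lymphoid libraries and 73.9 in the tumour library. Cd8a and Cd8b1 were low, and both were higher in the tumour library than in both lymphoid ones. Cd8a was at 0.0647, 0.0304 and 0.503, on about 3 tumour fragments, and was untested. Cd8b1 was called higher, at 0.494, 0.783 and 4.77 (limma adjusted p = 0.00255). Zbtb7b, which encodes the CD4 lineage factor ThPOK, was called lower, at 12.3, 13.2 and 7.01 (limma adjusted p = 0.0245). Tbx21, which encodes the Th1 regulator T-bet, was at 18.01, 20.2 and 12.9. Regulatory T cell transcripts were also present. Foxp3 was called lower, at 11.3 and 8.93 in the lymphoid libraries and 5.08 in the tumour library (log2 change -0.86). Ctla4 was called higher, at 11.5, 8.40 and 31.6 (log2 change 1.59). Il2ra and Ikzf2 of the same list were not called, and Il10 was at 0.0383 or less in all 3. Of 7 B cell markers 5 were at 0 in the tumour library, including Cd79a, Cd79b and Ms4a1, and the summed level was 0.706 to 0.943 in all 3 libraries. Macrophage and monocyte markers summed to 0.106 and 0.386 in lymphoid and 5.69 in tumour cells, and 2 of the 8 (C1qb and Ms4a7) were at 0 in the tumour library. Neutrophil markers summed to 0.391, 0.443 and 3.45, and 3 of the 4 (S100a8, S100a9 and Mmp8) were at 0 in all 3 libraries. Melanoma markers summed to 2.44, 2.73 and 4.43, with Mlana at 0 in all 3. Of the 7 Th1 markers 1 was called lower and 1 higher in limma, against 9.17% and 12.7% of all tested genes. Ifng, the defining Th1 cytokine gene, fell from 12.9 and 12.0 to 4.53 (log2 change -1.28, limma adjusted p = 0.00535), and the interferon gamma receptor gene Ifngr1 rose from 36.3 and 32.6 to 141.6 (log2 change 2.01). With counting error of the tumour library added to the spread, Ifngr1 was still called (adjusted p = 0.0102), and Ifng, Zbtb7b and Cd8b1 were not (adjusted p = 0.227, 0.220 and 0.0784). In that fit Ctla4 was still called and Foxp3 was not.

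After scaling, the naive and stem-like genes did not all move one way between lymphoid and tumour Th1 cells. Of the 9 genes 2 were called higher (Treml2 and Id3), 1 was called lower (Actn1) and 6 were not called. These counts are close to the shares of 12.7% and 9.17% among all tested genes. The median log2 change of the 9 was 0.11, against -0.01 for all tested genes, with a range from -0.88 to 0.82. In the tumour library 5 of the 9 lay above both lymphoid libraries and 4 below both, as did 41.3% and 42.6% of all tested genes. The direction of Bach2, Id3, Satb1, Treml2 and Dapl1 depends on the scaling: as deposited, all 5 had negative log2 changes. That of Tcf7, Lef1 and Foxo1 depends on it too, since all 3 had positive ones with library totals. On those values 0 of the 9 were called higher and 7 lower, where 4.74% and 77.8% of all genes were called, and with library totals 5 were called higher and 0 lower, where 42.1% and 2.94% were. With counting error of the tumour library added to the spread, 0 of the 9 were called in the same limma fit, where 3.23% of all genes were called higher and 0.288% lower. At an unadjusted p under 0.05, limma gave 4 of the 9 without that error and 2 with it, where 37% and 15.2% of all tested genes were under it, so neither count stands far from the background.

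**Figure D1:**
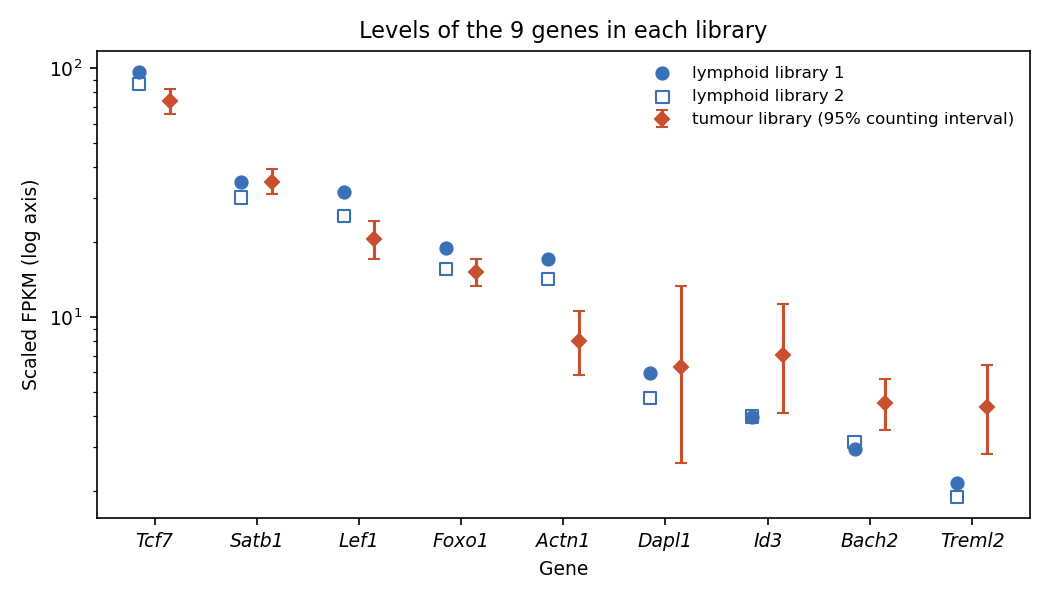
Scaled FPKM on a log axis for the 9 genes in the 2 lymphoid libraries and the tumour library, ordered by lymphoid mean. Tumour bars are 95% counting intervals from estimated fragments; Tcf7, from 73.6 to 96.7, was highest in every library, and Actn1 lay lower and Id3 and Treml2 higher in the tumour library than in both lymphoid ones.

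Tcf7, which encodes TCF-1 (chromosome 11, 52252371 to 52283014, GRCm38), was the most abundant of the 9 genes in all 3 libraries. It was at 96.7 and 86.2 scaled FPKM in the lymphoid libraries and 73.6 in the tumour library. The tumour value lay below both lymphoid values, at 80.5% of their mean, and both lymphoid values lay above its 95% counting interval of 65.3 to 82.4. Intervals of levels are exact Poisson ones and those of ratios exact binomial ones, from estimated fragments, and cover counting error only. The log2 change of -0.31 (SE 0.20) was not called (limma adjusted p = 0.32). In these bulk libraries, fewer cells that express a gene and less RNA per cell cannot be told apart.

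Lef1, the relative of Tcf7 with the same binding motif (chromosome 3, 131110471 to 131224356), was at 31.8 and 25.6 scaled FPKM in the lymphoid libraries and 20.6 in the tumour library. The tumour value was again below both, with a log2 change of -0.45 (SE 0.20, limma adjusted p = 0.176). The 2 relatives kept a similar proportion. The ratio of Tcf7 to Lef1 within a library, which no scaling can alter, was 3.04 and 3.37 in lymphoid and 3.57 in tumour cells. The 95% counting interval of the tumour ratio, 2.90 to 4.43, holds both lymphoid ratios.

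Foxo1, the regulator of lymphoid homing and IL-7 receptor expression (chromosome 3, 52268336 to 52353221), was at 19.0 and 15.6 scaled FPKM in the lymphoid libraries and 15.2 in the tumour library. The tumour value lay just under lymphoid library 2, with log2 differences of -0.31 and -0.04 against lymphoid libraries 1 and 2 (limma adjusted p = 0.554). Its ratio to its relative Foxo3 was 1.65, 1.30 and 1.53 in lymphoid library 1, lymphoid library 2 and the tumour library, so the tumour ratio fell between the lymphoid ones.

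Satb1, a chromatin organiser needed for T cell development (chromosome 17, 51736187 to 51833290), was at 34.8 and 30.3 scaled FPKM in the lymphoid libraries and 35.1 in the tumour library. The tumour value lay close to lymphoid library 1, and the log2 change of 0.11 (SE 0.19) was not called (limma adjusted p = 0.718). Satb1 and Tcf7 both rested on 292 estimated tumour fragments, the most among the 9 genes.

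Bach2, a repressor that competes with AP-1 factors and restrains effector differentiation (chromosome 4, 32238804 to 32586108), was at 2.96 and 3.15 scaled FPKM in the lymphoid libraries and 4.50 in the tumour library. The tumour value lay above both, and both lymphoid values lay under its counting interval of 3.52 to 5.66. The log2 change of 0.44 (SE 0.15) was not called after scaling (limma adjusted p = 0.0882), and as deposited it was -0.47. Within libraries Bach2 stood to Bach1, its closest relative, as 0.960 and 1.08 in lymphoid and 1.43 in tumour cells. The interval of the tumour ratio, 0.936 to 2.19, holds both lymphoid ratios. The ratio of Bach2 to Prdm1, the effector regulator gene that BACH2 represses, was 1.18, 1.33 and 1.41.

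Id3 was called higher in the tumour library. The gene encodes an inhibitor of E proteins that marks naive, follicular and stem-like T cells (ENSMUSG00000007872.3, chromosome 4, 136143497 to 136145755). It was at 3.98 and 3.99 scaled FPKM in the lymphoid libraries (3.98 ± 0.00932, SD, n = 2) and 7.05 in the tumour library. The tumour value was above both, 1.77 times the lymphoid mean, for a log2 change of 0.69 (SE 0.14, limma adjusted p = 0.0262). The lymphoid values happened to lie closer together than those of the other 8 genes, and the tumour value rested on about 17 fragments, with a counting interval of 4.11 to 11.3. With counting error added the call ended (adjusted p = 0.429), and as deposited the log2 change was -0.29 (adjusted p = 0.116).

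Id2, the ID protein gene of effector cells, went the other way. It was at 204.2 and 189.9 scaled FPKM in the lymphoid libraries and 116.9 in the tumour library, with a log2 change of -0.75 that was not called (limma adjusted p = 0.0539). Id2 transcripts outnumbered those of Id3 per length in every library. The ratio of Id3 to Id2 within a library was 0.0195 and 0.0210 in lymphoid and 0.0603 in tumour cells, 2.98 times the lymphoid mean. Both lymphoid ratios lie under the tumour counting interval of 0.0347 to 0.0984, and this ratio holds under any scaling. The ratio of Tcf7 to Id2 was 0.473, 0.454 and 0.630, also with both lymphoid ratios under the tumour interval of 0.532 to 0.743. Tcf7 itself was not higher after scaling. In the tumour library Tcf7 was at 80.5% and Id2 at 59.3% of the lymphoid mean. Single libraries were compared here, so these intervals do not cover variation between tumours.

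**Figure D2:**
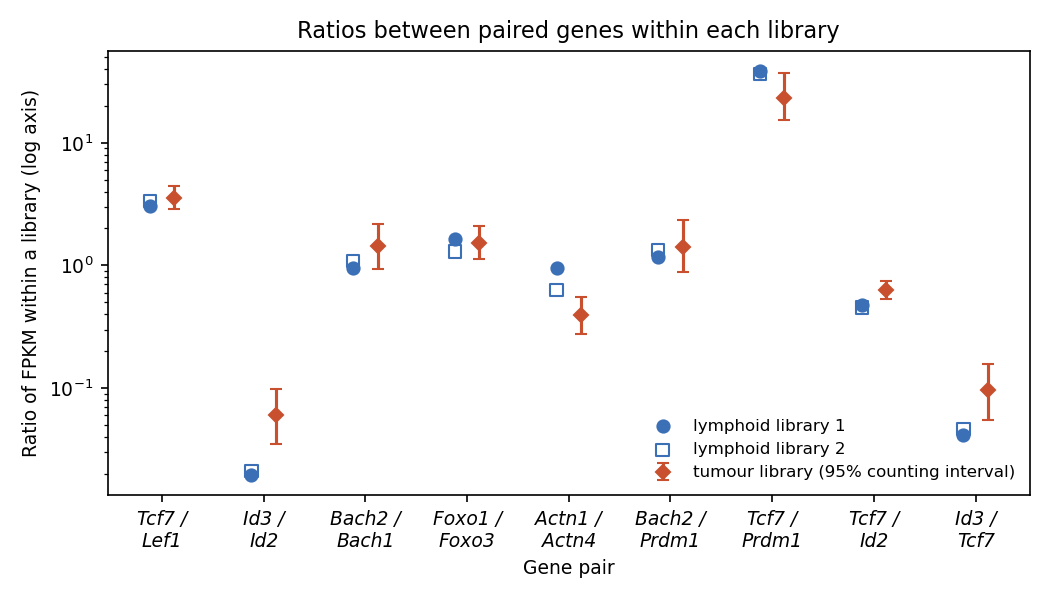
Ratio of FPKM between the named genes within each library, on a log axis, with 95% exact binomial counting intervals for the tumour library. Id3 to Id2 (0.0195 and 0.0210 in lymphoid, 0.0603 in tumour) and Tcf7 to Id2 lie higher and Actn1 to Actn4 lower in tumour, while Tcf7 to Lef1 overlaps.

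Treml2, a receptor of the TREM family found on T cells, B cells and myeloid cells (ENSMUSG00000071068.7, chromosome 17, 48299498 to 48312533), was also called higher. It was the least abundant of the 9, at 2.15 and 1.90 scaled FPKM in the lymphoid libraries (2.03 ± 0.179, SD, n = 2) and 4.34 in the tumour library. The tumour value was above both, 2.14 times the lymphoid mean, for a log2 change of 0.82 (SE 0.15, limma adjusted p = 0.0182). It rested on about 25 tumour fragments, and with counting error added it was not called (adjusted p = 0.261). As deposited the tumour value of 2.52 FPKM was close to the lymphoid values of 2.79 and 2.53. Relative to Cd3e, a chain of the T cell receptor complex, Treml2 was at 0.0171, 0.0179 and 0.0390, and both lymphoid ratios lie under the tumour interval of 0.025 to 0.059. Among macrophage and monocyte markers, C1qa was at 0, 0.0946 and 2.55 and Cd14 at 0, 0.0330 and 1.08. Lyz2 was at 0, 0.0486 and 0.524, Csf1r at 0.0857, 0.0604 and 0.133, and C1qb and Ms4a7 at 0 in the tumour library. The neutrophil marker Cxcr2 was called higher, at 0.391, 0.443 and 3.45 (log2 change 1.65), but not with counting error added. The part of myeloid cells in the Treml2 value was not tested.

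Most of the genes listed with Treml2 (TREM family genes and Cd276), and Id1 and Id4 beside Id3, were near 0 in lymphoid cells. They had values above 0 in the tumour library. These genes were picked after their values were seen. Trem1 was at 0.0498 and 0.0468 scaled FPKM in the lymphoid libraries and 3.90 in the tumour library. Treml1 was at 0.0581, 0 and 2.69, and Trem2 at 0, 0.0937 and 1.52, in lymphoid library 1, lymphoid library 2 and the tumour library. Treml4 was at 0.621 and Cd276 at 0.163 in the tumour library, and Trem3 at 0 in all 3. All 6 of these genes listed with Treml2 were under the filter and untested. Id1 was at 0.161, 0 and 1.85 and Id4 at 0.0416, 0 and 1.61, also untested, on about 4 and 12 tumour fragments. For scale, 1419 odorant and vomeronasal receptor genes, which T cells are not known to use, had a 95th percentile of 0.0778 and 0.163 scaled FPKM in the lymphoid libraries and 1.45 in the tumour library. The tumour values of 1.69% of them were at least as large as the difference of 2.32 seen for Treml2, and 0.775% reached the 3.06 of Id3. In FPKM times transcript length in nt, 1 fragment was worth 87.8 and 64.8 in the lymphoid libraries and 307 in the tumour library. A few fragments of a short gene therefore give a larger value in the tumour library. A mean was also taken over 1390 of the receptor genes, with the highest left out. It was 0.0100 and 0.0434 scaled FPKM in the lymphoid libraries and 0.261 in the tumour library. The part of the fragment value in these percentiles and means was not tested. Neither was the part of the low-level tumour signal in the 2 called rises.

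**Figure D3:**
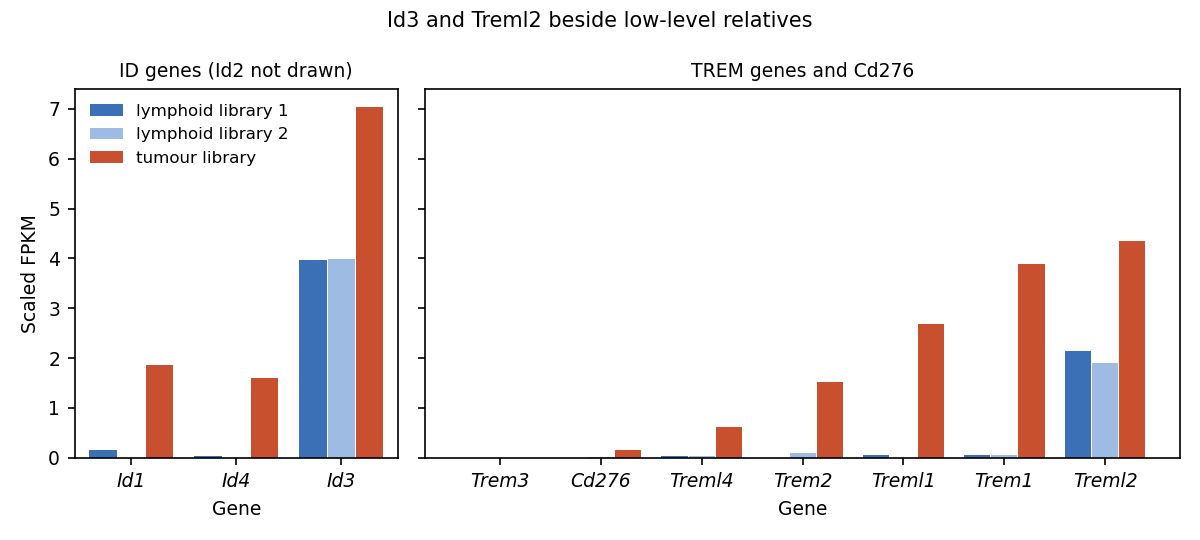
Scaled FPKM (bars, from 0) of Id3 and Treml2 beside low-level relatives and Cd276 in the 3 libraries. Id3 and Treml2 have lymphoid bars near 4 and 2. The bars of Id1, Id4 and the 6 genes listed with Treml2 are near 0 in lymphoid cells. In the tumour library these bars lie between 0 (Trem3) and 3.90 (Trem1).

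Actn1 was the one gene of the 9 called lower. It encodes alpha-actinin-1, an actin cross-linking protein that is high in naive T cells (ENSMUSG00000015143.15, chromosome 12, 80167547 to 80260371). It was at 17.1 and 14.2 scaled FPKM in the lymphoid libraries (15.6 ± 2.07, SD, n = 2) and 8.02 in the tumour library. The tumour value was below both, at 51.3% of the lymphoid mean, for a log2 change of -0.88 (SE 0.18, limma adjusted p = 0.0266). The sign was negative as deposited (-1.93), after scaling and with library totals (-0.20, adjusted p = 0.612). It rested on about 48 tumour fragments with a counting interval of 5.87 to 10.5, and its call ended once counting error was included (adjusted p = 0.207), and also when low genes were left unfiltered (adjusted p = 0.0892). Within libraries Actn1 stood to Actn4, the other non-muscle alpha-actinin gene, as 0.947 and 0.633 in lymphoid and 0.397 in tumour cells, and both lymphoid ratios lie above the tumour interval of 0.278 to 0.550. Actn4 itself was at 18.1 and 22.4 in the lymphoid libraries and 20.2 in the tumour library.

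Dapl1, a gene of naive and memory T cells whose product is little studied (chromosome 2, 59484653 to 59505020), was at 5.98 and 4.75 scaled FPKM in the lymphoid libraries and 6.32 in the tumour library. Its transcript is short, and the tumour value rested on about 7 fragments, with a counting interval of 2.60 to 13.3 that holds both lymphoid values. The log2 change of 0.21 (SE 0.18, limma adjusted p = 0.446) was therefore not distinguishable from 0 at this depth.

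**Figure D4:**
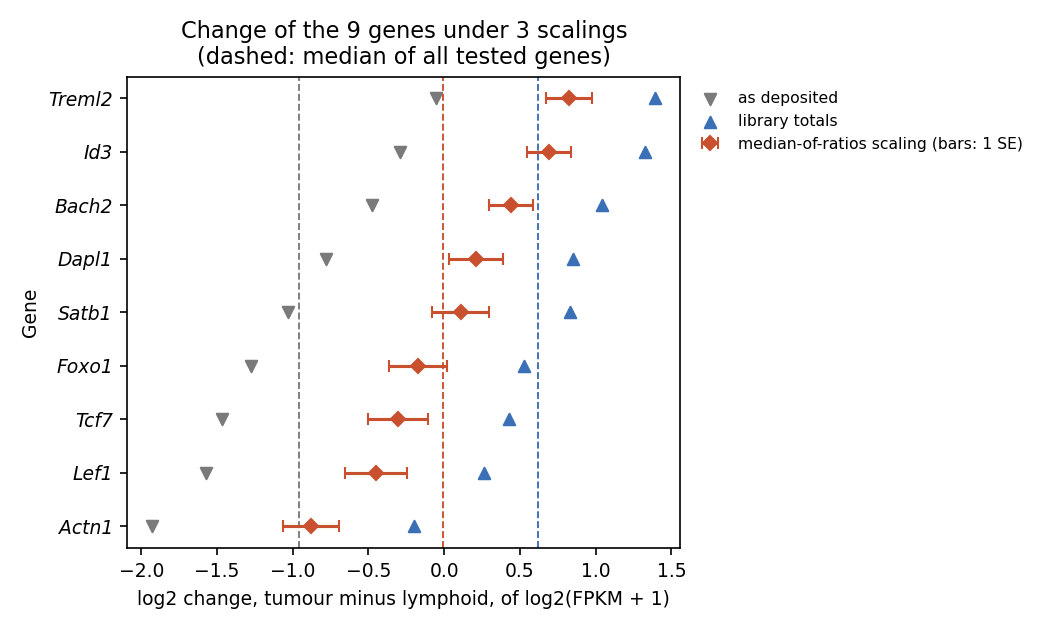
Log2 change of the 9 genes under 3 scalings, with the median of all tested genes dashed for each. From Actn1 at -0.88 to Treml2 at 0.82 after median-of-ratios scaling (bars, 1 SE), the genes keep the same order under each of the 3 scalings while their position relative to 0 moves.

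A ratio to Cd3e, a T cell receptor chain gene with 307 estimated tumour fragments that was not called, is free of scaling. Tcf7 stood to Cd3e as 0.767 and 0.813 in the lymphoid libraries and 0.662 in the tumour library, whose counting interval of 0.560 to 0.777 holds lymphoid library 1. Lef1 stood to it as 0.252, 0.242 and 0.186, and Actn1 as 0.136, 0.134 and 0.0721, and the tumour intervals (0.149 to 0.227 and 0.0516 to 0.0971) lie below both lymphoid ratios. Id3 stood to it as 0.0315, 0.0376 and 0.0633, with a tumour interval of 0.0364 to 0.103 that holds lymphoid library 2. Such ratios show unequal change of the paired genes, not which of them changed. They also depend on the chain gene chosen. Cd3g was lower in the tumour library than in both lymphoid ones, at 187.6, 215.6 and 144.4 scaled FPKM. Cd3d was above both, at 54.3, 51.7 and 55.1, and Cd247 between them, at 40.3, 50.6 and 50.1. Ratios to these genes were not examined.

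The order of the 9 levels, which FPKM allows per transcript length, was the same in both lymphoid libraries. From highest to lowest it was Tcf7, Satb1, Lef1, Foxo1, Actn1, Dapl1, Id3, Bach2 and Treml2. The lymphoid values of Satb1 and Lef1 overlapped across the 2 libraries, and so did those of Foxo1 and Actn1. Within each lymphoid library Satb1 was 1.09 and 1.18 times Lef1, and Foxo1 1.11 and 1.10 times Actn1. In the tumour library Id3 and Dapl1 changed places, and the counting intervals of Actn1, Id3, Dapl1, Bach2 and Treml2 each overlapped that of the next gene in order. The 4 genes with a mean under 10 scaled FPKM (Bach2, Id3, Treml2 and Dapl1) all had positive changes. Among all 7233 tested genes at that level, 14.8% were called higher and 10.1% lower, with a median log2 change of 0.03. Of the 5 genes with a mean of at least 10, Tcf7, Lef1, Foxo1 and Actn1 had negative changes and Satb1 a positive one.

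Promoter sequence was available from RefSeq (GRCm38.p6) for 8 of the 9 genes, in 16 windows of 250 bases before to 50 after a start site. The windows were searched on both strands for the TCF/LEF motif ATCAAAG, the FOXO motif GTAAACA, the E-box CANNTG to which E proteins bind, the AP-1 and BACH motif TGANTCA and the ETS motif CCGGAAGT. The FOXO motif was in windows of 2 genes (Dapl1 and Tcf7), and 3.65% of all 32851 windows of this length hold it. The E-box was in windows of 6 genes, against 72.3% of all windows. The TCF/LEF and AP-1 and BACH motifs were in none of the members' windows, where 3.73% and 7.81% of all windows hold them, and the ETS motif was in a window of 1 gene (Tcf7), where 3.89% hold it. Genes with several start sites have several windows, so shares of genes and of windows are not the same measure. A match is a description of letters, not a bound site. The bases upstream of both the RefSeq and the GENCODE start are shown for Actn1, the gene called lower, at chr12:80260372-80260613 (minus strand), and for Dapl1, whose upstream bases hold the FOXO motif, at chr2:59484403-59484652 (plus strand). Both read 5′ to 3′ in the direction of the gene, and capitals mark the E-box in Actn1 and the FOXO motif in Dapl1. An annotated antisense gene covers part of the Actn1 stretch.
Actn1: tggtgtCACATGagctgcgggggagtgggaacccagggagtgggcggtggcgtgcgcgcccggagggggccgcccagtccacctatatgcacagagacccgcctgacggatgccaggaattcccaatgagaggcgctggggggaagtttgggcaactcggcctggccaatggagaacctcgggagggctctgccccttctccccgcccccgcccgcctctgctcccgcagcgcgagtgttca
Dapl1: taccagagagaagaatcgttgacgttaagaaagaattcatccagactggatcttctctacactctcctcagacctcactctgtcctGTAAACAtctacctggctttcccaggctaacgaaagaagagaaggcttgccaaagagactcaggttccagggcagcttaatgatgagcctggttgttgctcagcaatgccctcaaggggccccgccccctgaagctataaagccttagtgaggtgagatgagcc

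Genes that work with these factors were mostly not called, where 12.7% of all tested genes were called higher and 9.17% lower. Of 10 tested TCF/LEF partners and Wnt pathway genes 0 were called in limma, and Ctnnb1, which encodes beta-catenin, was at 17.8 and 17.6 scaled FPKM in the lymphoid libraries and 21.7 in the tumour library. None of the 3 tested E protein and other ID genes (0), and none of the 9 FOXO and FOXP relatives and FOXO1 regulators (0), was called. The most abundant of the last list, Usp7, a deubiquitinase, was at 18.2, 18.5 and 16.3. Of the 5 tested SATB1 relatives and nuclear architecture genes 0 were called, with Hdac1, a histone deacetylase gene, at 23.9, 26.8 and 17.2. At an unadjusted p under 0.05 in limma the 4 lists held 0, 1 (Id2), 1 (Foxp1) and 1 (Hdac1) genes, against 37% of all tested genes.

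The homing and survival genes that depend on FOXO1 in T cells had 0 calls of 5 in limma and 2 genes at an unadjusted p under 0.05 (S1pr1 and Ccr7), where 37% of all tested genes were under it, with a median log2 change of 0.13. Il7r, which encodes the IL-7 receptor alpha chain, was the most abundant at 92.3 and 77.4 scaled FPKM in the lymphoid libraries and 88.9 in the tumour library. S1pr1, the receptor for egress from lymphoid organs, had the largest change, picked after its values were seen. It was at 32.97 and 24.99 in lymphoid and 52.2 in tumour cells (log2 change 0.84, limma adjusted p = 0.0521). Klf3, also picked after its values were seen, was the one of the 5 below both lymphoid libraries, at 33.2, 27.6 and 21.9.

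Among 15 other tested naive T cell genes, 2 were called higher and 3 lower, against 12.7% and 9.17% of all tested genes. Their median log2 change was -0.14. Pik3ip1, an inhibitor of PI3 kinase, fell from 7.47 and 6.20 scaled FPKM in the lymphoid libraries to 2.35 in the tumour library, by a log2 change of -1.22 (limma adjusted p = 0.00771). The gut-homing receptor gene Ccr9 fell from 7.92 and 6.51 to 2.74, by a log2 change of -1.13. Klhdc2 rose from 2.50 and 3.31 to 5.99 (log2 change 0.85), and Tdrp, named 2610019F03Rik in the files, rose from 3.01 and 2.90 to 5.53 (0.72). As deposited the last 2 had changes of -0.10 and -0.22. All 5 calls ended with counting error added.

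Other stem-like and memory genes had 3 higher and 0 lower calls of 11 tested, with a median of 0.08. The shares among all tested genes were 12.7% higher and 9.17% lower. Bcl6, the repressor that defines follicular helper cells and supports memory, rose from 2.50 and 2.29 scaled FPKM in the lymphoid libraries to 6.80 in the tumour library, by a log2 change of 1.20 (SE 0.15, limma adjusted p = 0.00522). Myb, a factor that maintains stem-like T cells, rose from 3.61 and 3.88 to 9.15, by 1.10 (limma adjusted p = 0.00712). With counting error added their adjusted p were 0.0709 and 0.08. Like Id3, Treml2 and Bach2, both lay under 5 scaled FPKM in lymphoid cells.

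Regulators of effector and terminal differentiation had 3 higher and 0 lower calls of 12 tested (all tested genes: 12.7% and 9.17%), with a median of 0.15. Nr4a1, induced by T cell receptor signalling, rose from 2.13 and 2.37 scaled FPKM to 29.0, and Bhlhe40 rose from 9.45 and 9.56 to 30.2, and the fit with counting error called both (adjusted p = 0.00395 and 0.0219). Prdm1, which encodes Blimp-1, was at 2.51 and 2.36 in lymphoid and 3.20 in tumour cells and was not called. The ratio of Tcf7 to Prdm1 was 38.5 and 36.5 in lymphoid and 23.0 in tumour cells, on about 24 tumour fragments of Prdm1, and lymphoid library 2 lies inside the tumour interval of 15.3 to 36.9.

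Partners of BACH2 and of alpha-actinin gave 1 call and 2 calls, where 12.7% of all tested genes were called higher and 9.17% lower. Mafg, a small MAF protein gene whose product pairs with BACH factors, was at 1.82 and 3.15 scaled FPKM in the lymphoid libraries and rose to 6.21 in the tumour library (log2 change 1.08, limma adjusted p = 0.0353), the 1 call among 5 tested BACH partners and relatives. Among 8 tested actin cross-linking and adhesion genes, Vcl, which encodes the alpha-actinin partner vinculin, fell from 1.63 and 1.60 to 0.589 (log2 change -0.72, limma adjusted p = 0.0304) on about 6 tumour fragments. Actn2, the muscle alpha-actinin gene, rose from 0.788 and 1.27 to 4.48 (1.45, limma adjusted p = 0.00725). The fit with counting error called none of these 3 genes (adjusted p = 0.345, 0.307 and 0.0875).

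**Figure D5:**
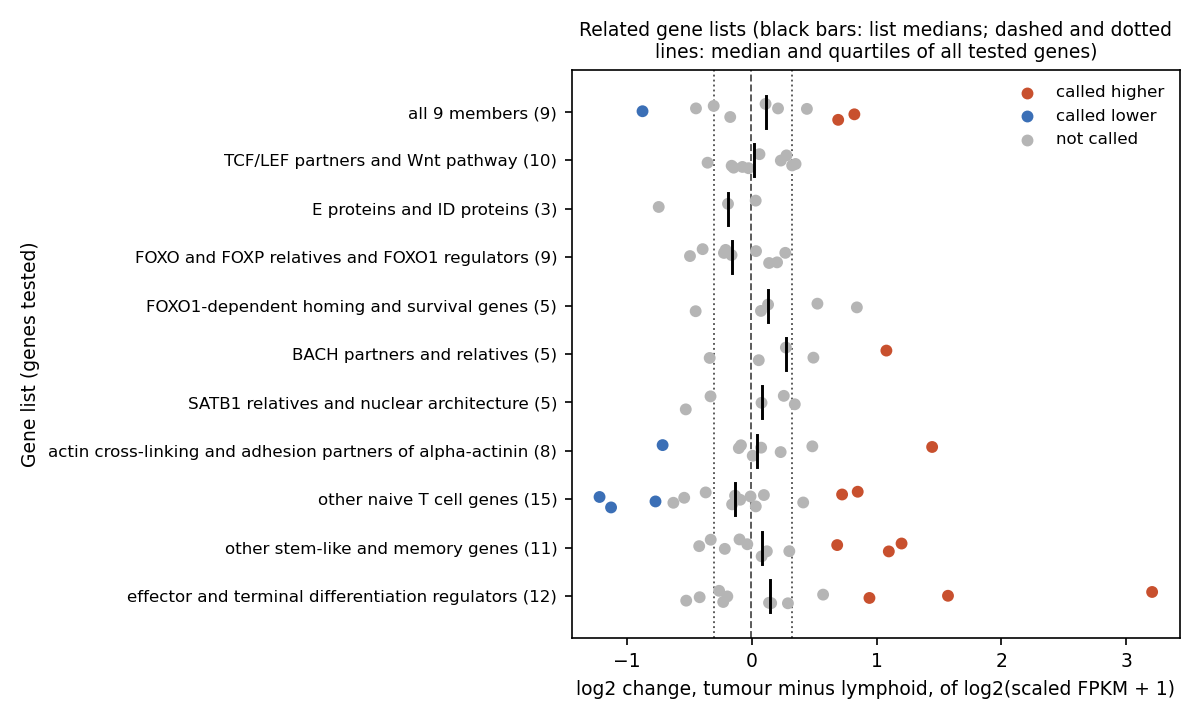
Log2 change of each tested gene (points, coloured by call) in the 9 genes and the related lists, with list medians as black bars and the median and quartiles of all tested genes as vertical lines. List medians run from -0.19 to 0.27, inside the quartiles of -0.31 and 0.32, and most points are not called.

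The tested genes whose values over the 3 libraries were most like a member's were found by distance on the log2 scale, centred on the lymphoid mean. For Actn1 they were Snord71, a small nucleolar RNA gene, and Gatad1. For Treml2 they were Gm4951 and Tnfsf8, which encodes the CD30 ligand, and for Id3 Cpne8 and Riok1, at distances from 0.00665 to 0.0126. With 3 libraries such likeness is common: 67, 113 and 177 tested genes lay within a distance of 0.1 of Actn1, Treml2 and Id3.

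Of the 9 genes 6 overlap an annotated antisense gene (Tcf7, Lef1, Foxo1, Bach2, Satb1 and Actn1), and 0 of those overlapping genes has a row of its own symbol in the tables. The library kit marks strand, but whether strand was used for the values is not given in the sources used here. Id3, Treml2 and Dapl1 overlap no other annotated gene.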

How the data were processed

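Total RNA from 300000 CD4+ T cells per library was made into stranded, ribosomal-RNA-depleted libraries and sequenced in pairs of 75 bp, per the labels' protocols. The submitters' processing notes name the build mm10 and the tools kallisto and DESeq2 with no version or role. Which program produced the tables is not given in the sources used here. Values deposited by the authors were read as FPKM, a unit inferred from the column style, per the file headers, and from library sums that differ. Where a symbol had several rows (252 symbols), that with the highest mean was used, leaving 23337. GENCODE M21 (GRCm38) gave coordinates and lengths for 22984 of them by symbol or unique older symbol. The length is the median over a gene's basic transcripts.

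Size factors were medians of ratios over 9660 genes above 0 in all libraries. limma 3.58.1 (R 4.3.3, mean-variance trend) was run on log2(scaled FPKM + 1) of the 9800 genes averaging at least 1 FPKM, with 1 residual degree of freedom from the lymphoid libraries. Between the lymphoid libraries the SD of the log2 difference over tested genes was 0.36. Estimated fragments are FPKM times length over the value shared by most single-transcript genes. The further fit adds the tumour library's Poisson variance to the squared SE. Beside the members, each list contributes at most 2 called rises and 2 called falls, the largest, or, if it has no call, its gene of highest mean. Family relatives, Cd276, ratio partners such as Prdm1 and Cd3e, and cell type markers are named outside this rule. The members and lists were chosen with earlier results of these data known. Other settings were values as deposited, library totals, upper-quartile scaling, pseudocounts of 0.1 and 5, no filter on low values, a stricter one at 5 FPKM and leaving out each lymphoid library. 1 further gene was left out of every list and its counts and is not reported here.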

Additional observations from a re-analysis of the deposited data

How the results depend on the processing

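Scaling decided most directions. As deposited, 465 genes were called higher and 7620 lower, with 0 members higher and 7 lower, and with library totals 4122 were higher and 288 lower, with 5 members higher and 0 lower. Signs changed as deposited for Bach2 (-0.47), Id3 (-0.29), Satb1 (-1.03), Treml2 (-0.057), Dapl1 (-0.78), Ctnnb1 (-0.84), Il7r (-1.09), Klhdc2 (-0.10) and 2610019F03Rik (-0.22), and with library totals for Tcf7 (0.43), Lef1 (0.26), Foxo1 (0.53), Usp7 (0.54) and Hdac1 (0.18). With no filter on low values 7364 genes were called higher and 788 lower, with Id3 and Treml2 still higher and 0 members lower. At a mean of at least 5 FPKM, 211 were higher and 191 lower, with 0 members called either way (Bach2, Id3 and Treml2 were then untested, and Actn1 had an adjusted p of 0.0611). With counting error added, 314 were higher and 28 lower, with 0 members called. Upper-quartile scaling and pseudocounts of 0.1 and 5 left the members at 2 higher and 1 lower calls. Leaving out a lymphoid library leaves 1 library a group and no test, and each member kept its sign both times. No paired analysis was possible because the labels number the lymphoid libraries only. The single tumour library and its depth limit every comparison, and no spread between tumours could be measured.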
